A study of Mus musculus with 7 samples.

Results

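Haemoglobins and other genes of red blood cells were examined in mouse mammary glands kept in organ culture. The set was named as 9 genes: the adult α-globins Hba-a1 and Hba-a2, the adult β-globins Hbb-bs and Hbb-bt, the embryonic globins Hba-x, Hbb-bh1 and Hbb-y, and Alas2 and Slc4a1. They were chosen for their levels on these same 7 arrays, so those levels and the ratios between arrays are given as a description. Through the RefSeq accessions of the array's probes, 5 of the 9 genes were found, on 7 of the 34967 gene probes: 1 probe each for Hba-a1 (GE34550), Hba-x (GE35536), Alas2 (GE1476463) and Slc4a1 (GE36104), and 3 for Hbb-y (GE117914, GE117921 and GE34551). No probe matched Hba-a2, Hbb-bs, Hbb-bt or Hbb-bh1, so the adult haemoglobins are represented here by the Hba-a1 probe alone.

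RNA of thoracic mammary glands from 4-week-old female mice was hybridized to CodeLink Mouse Whole Genome arrays, 1-colour oligonucleotide arrays, with 1 array per group. The αERKO array (targeted Esr1, the gene for ERα) and the βERKO-labelled array (targeted Esr2, the gene for ERβ) were labelled as glands of knockout mice on a C57BL6/129SV background after 24 days of culture. A WT (C57) array held glands after 24 days of culture with the carcinogen 7,12-dimethylbenz[a]anthracene (DMBA). Per the methods, each of these 3 groups was a pool of RNA from 5 mice. The same methods also say that αERKO glands, which had no lesions, gave no samples for molecular analysis. The paper's discussion instead describes array data from RNA of αERKO glands without lesions. These accounts differ, and the αERKO array is taken here by its label. Of the other 4 arrays, a pair held C57 glands that had no DMBA, at 10 and at 24 days, and a pair held Balb/c glands at 24 days, without and with vitamin D5 (dose not given). The titles of the αERKO, βERKO-labelled and Balb/c arrays do not name DMBA, although the shared protocol gives 2 µg/ml on Day 3 for 24 h. The paper describes the glands on its αERKO, βERKO and WT arrays as treated with DMBA. Glands grew for 10 days with insulin, prolactin, aldosterone and hydrocortisone, and the 24-day cultures had 14 further days with insulin only. The labels give the pretreatment of the mice both as 1 µg estrogen with 1 mg progesterone for 9 days and as 25 ng EGF with 1 mg progesterone for 5 days. For its αERKO, βERKO and WT arrays the paper gives EGF with progesterone. With 1 array per group no difference below has a replicate check, and no test was run.

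Levels are log2 values of each spot's background-subtracted intensity over the median of the gene probes of its array, so that 0 is the array median. A spot was taken as measured where the scanner software called it good, and otherwise it is said to be not well above background. Between 68.4% and 74.2% of gene probes were good on an array, with median intensities between 39.1 and 53.0 over a local background of 80 to 83. The Esr2 probe was good, at 0.87, on the βERKO-labelled array, and not well above background on the WT array with DMBA. On the WT array of 24 days without DMBA it was also good, at a lower level. The good Esr2 spot on the βERKO-labelled array goes against the label, although which part of the Esr2 transcript the probe reads was not checked. The βERKO-labelled array is thus called by its label throughout and gives no direction for loss of ERβ. The SD of a log2 ratio between different probes of the same accession is given beside ratios as their error. It was 0.594 for αERKO over WT with DMBA (531 pairs of probes) and covers the difference between probes, not between animals or arrays.

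Red blood cells carry oxygen with haemoglobin, a tetramer of α-like and β-like globin chains that each hold a haem group. The globin genes lie in an α cluster and a β cluster, from which embryonic genes are used first and adult genes later. Erythroid precursors make haem for these chains through Alas2, the erythroid form of the first enzyme of haem synthesis, and place Slc4a1 (band 3), an anion exchanger, in the membrane. Mature red cells of mammals have no nucleus, but young ones still hold globin mRNA. In whole glands, fewer cells of a type and less RNA per cell cannot be told apart.

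In RefSeq's gene order the α cluster on chromosome 11 runs Hba-x, Hba-a1, Hbq1b, Hba-a2, Hbq1a, and the β cluster on chromosome 7 runs Hbb-bt, Hbb-bs, Hbb-bh2, Hbb-bh1, Hbb-y. Alas2 lies on chromosome X. Promoters of 7 of the 9 genes were matched in RefSeq's table (GRCm38.p6). The 250 bases before the transcription start are printed for the 4 of these genes that had a probe with a good spot. Capitals mark AGATAA or TGATAA (recognized by GATA factors), CACCC (by Klf1 and related factors), CCAAT and TATAA, each searched on both strands.
Hba-a1 (chr11:32283422-32283671, + strand): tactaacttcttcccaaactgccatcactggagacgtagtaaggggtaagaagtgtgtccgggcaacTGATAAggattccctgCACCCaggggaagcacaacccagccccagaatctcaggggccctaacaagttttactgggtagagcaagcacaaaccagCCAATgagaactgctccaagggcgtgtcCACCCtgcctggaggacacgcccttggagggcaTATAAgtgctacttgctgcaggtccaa
Hbb-y (chr7:103853208-103853457, - strand): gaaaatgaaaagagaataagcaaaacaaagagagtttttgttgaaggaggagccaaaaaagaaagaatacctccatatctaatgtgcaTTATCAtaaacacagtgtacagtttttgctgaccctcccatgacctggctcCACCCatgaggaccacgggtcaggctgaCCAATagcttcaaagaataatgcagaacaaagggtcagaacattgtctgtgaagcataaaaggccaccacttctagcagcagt
Alas2 (chrX:150547167-150547416, + strand): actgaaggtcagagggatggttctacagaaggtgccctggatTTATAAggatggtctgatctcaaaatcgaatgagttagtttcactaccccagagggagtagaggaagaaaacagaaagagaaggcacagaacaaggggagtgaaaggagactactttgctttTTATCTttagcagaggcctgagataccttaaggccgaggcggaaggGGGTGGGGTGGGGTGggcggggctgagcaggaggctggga
Hba-x (chr11:32276350-32276599, + strand): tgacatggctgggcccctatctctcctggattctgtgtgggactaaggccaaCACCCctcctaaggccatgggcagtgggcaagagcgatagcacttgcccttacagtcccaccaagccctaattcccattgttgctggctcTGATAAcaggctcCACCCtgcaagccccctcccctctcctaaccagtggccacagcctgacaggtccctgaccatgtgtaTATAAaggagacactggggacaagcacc
A GATA motif was found once in each of the 4 sequences printed, and among the 7 matched it was found in all but Hbb-bt, an adult β-globin without a matched probe, and 16.6% of the 32851 promoters of this length in the table hold it. The CACCC motif was found 2 times in Hba-a1 and Hba-x, 1 time in Hbb-y and 3 times in Alas2, against 52.0% of promoters with at least 1. CCAAT was found in Hba-a1 and Hbb-y, against 33.9% of promoters. TATAA was found in Hba-a1 and Hba-x close to the start, against 22.8% of promoters, and in Alas2 as a pair of matches on opposite strands that overlap in TTATAA. In the Hba-a1 and Hba-a2 promoters 247 of 250 bases form 1 identical run, so the 2 genes could not be told apart there. Probe sequences were not analysed here, and whether the Hba-a1 probe also reads Hba-a2 is uncertain.

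The Hba-a1 spot was good on all 7 arrays. Its level was 9.17 on the αERKO array, 5.18 on the WT array with DMBA and 4.44 on the βERKO-labelled array. It was 3.02 on the WT array of 24 days without DMBA and 2.23 at 10 days, and 1.53 on the Balb/c array and 1.17 on the Balb/c array with vitamin D5. As deposited, the αERKO array was thus the highest by 15.9-fold over the next, and the 7 arrays spanned 256-fold.

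The height of Hba-a1 on the αERKO array rested on how the pixels of that spot are summarized. The deposited intensity uses the mean over the spot, which was 22626, whereas the median pixel was 2091, so the mean was 10.8 times the median. On the other 6 arrays the mean of the Hba-a1 spot was 0.81 to 1.00 times its median. Bright spots were often uneven: on the αERKO array the mean was a median of 2.29 times the median pixel over the 135 gene probes with a mean above 10000, and 8.42 times at their 99th percentile. None of these 135 exceeded the Hba-a1 spot. With median pixels throughout, a summary chosen after these values were seen, the level was 5.80 on the αERKO array and 5.57 on the WT array with DMBA. The array labelled βERKO then stood at 4.77, the WT arrays without DMBA at 3.31 (24 days) and 2.42 (10 days), and the Balb/c arrays at 1.80 and, with vitamin D5, 1.43. The order of the 7 arrays was kept, and the span was 20.6-fold. By mean pixels each neighbour in this order differed by more than the SD between probes. By median pixels the αERKO and WT with DMBA arrays did not, with a difference of 0.23 against an SD of 0.658, and the other 5 neighbours still did.

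**Figure D1:**
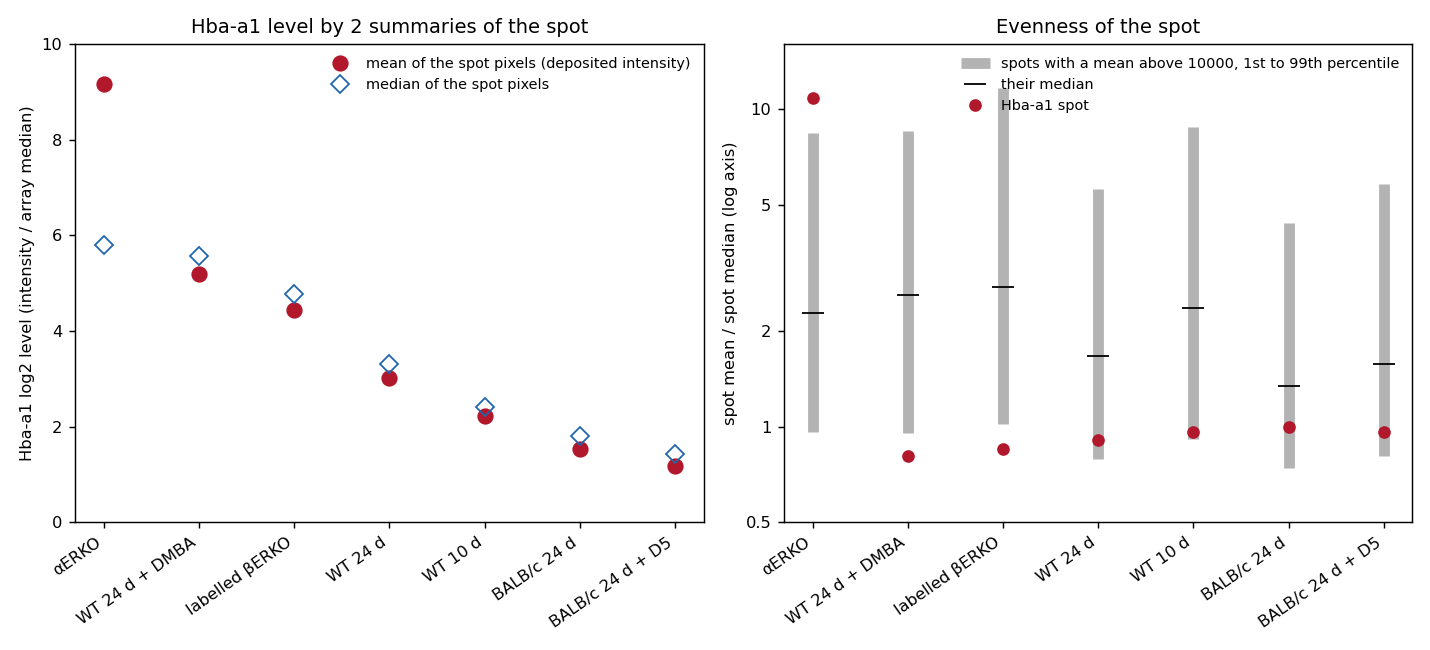
Left, log2 level of Hba-a1 (intensity over the array median) on each of the 7 arrays, in falling order, from the mean (filled) and the median (open) of the spot's pixels. Right, the spot mean over the spot median (log axis) for Hba-a1 (points) and for gene probes with a mean above 10000 (bars, 1st to 99th percentile; dash, median). Hba-a1 on the αERKO array falls from 9.17 to 5.80 between the summaries, and its ratio of 10.8 lies above the bar.

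Alas2 was good on all 7 arrays and was highest on the αERKO array, at 2.54. It was 0.20 on the WT array with DMBA, 0.03 on the βERKO-labelled array, 0.21 on the WT array of 24 days without DMBA, -0.03 on the WT 10-day array, -0.48 on the Balb/c array and 0.04 with vitamin D5. The other 6 arrays thus lay within 0.69 of each other, and the αERKO array lay between 5.04-fold and 8.11-fold above each of them. By median pixels the αERKO level was 2.68, and the spot was even, with a mean 0.99 times its median.

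The 3 Hbb-y probes carry the same accession and gave 3 different patterns. GE117921 was 7.78 on the αERKO array, -0.03 on the βERKO-labelled array and -0.37 on the WT array of 24 days without DMBA, and it was not well above background on the other 4 arrays. By median pixels its αERKO level was 7.55. GE117914 was good on the αERKO array alone, at 0.35. GE34551 was good on every array and stayed between -0.92 (WT with DMBA) and -0.14 (WT 10 days), with the αERKO array at -0.70. Thus 2 of the 3 probes were brightest on the αERKO array and the third was not. Which transcripts each of them reads was not tested.

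Hba-x, an embryonic α-like globin, was good on the WT 10-day array, at -0.34, and on the Balb/c array with vitamin D5, at -0.90. It was not well above background on the other 5 arrays, the αERKO array included. Slc4a1 was not well above background on any array.

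**Figure D2:**
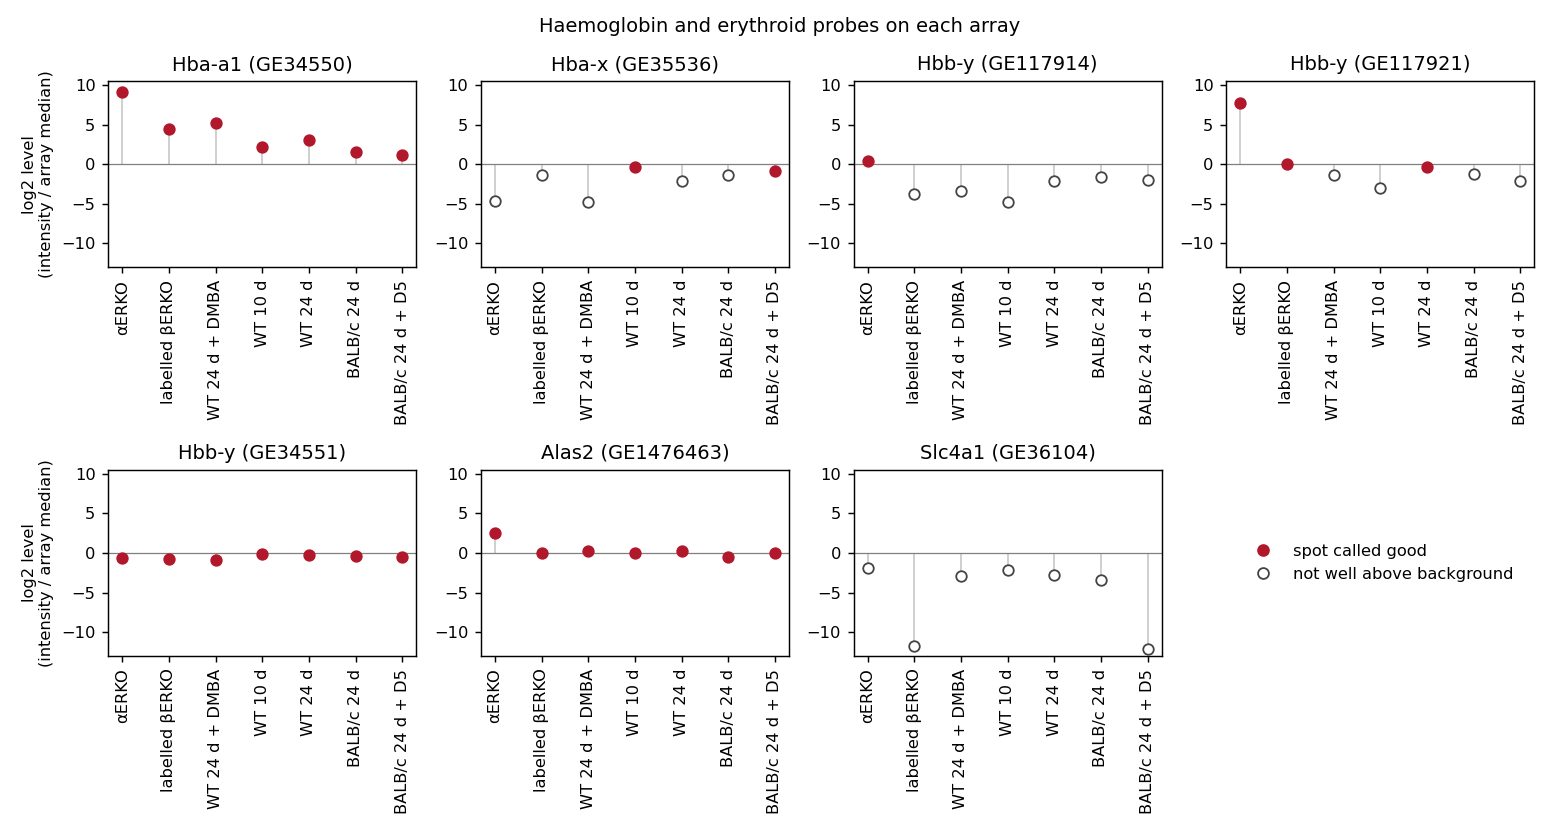
Log2 level (intensity over the array median, by mean pixels) of each of the 7 probes on the 7 arrays; filled points are spots called good and open points are not well above background. Hba-a1, Hbb-y (GE117921 and GE117914) and Alas2 are highest on the αERKO array, at 9.17, 7.78, 0.35 and 2.54, while Hbb-y (GE34551) stays between -0.92 and -0.14.

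The first comparisons follow the genotypes in the labels. Those of the αERKO and βERKO-labelled arrays with WT share the WT array with DMBA, and the comparison between them uses both arrays again. In the comparisons with WT, genotype and strain background cannot be told apart. The knockout titles do not name DMBA, and that these glands had it rests on the paper's description. On the αERKO array, 4 of the 5 probes measured on at least 1 of the 2 arrays were over 2-fold higher than on the WT array with DMBA and 0 were lower. Among all such probes 11.7% were higher and 14.1% lower, with a median log2 ratio of -0.09. Of all calls 45.28% were higher, or 53.43% with the arrays scaled to their 75th percentile. By median pixels 3 of the 5 were higher and 0 lower, against 11.8% and 15.2% of all such probes. The 5 include the 3 probes of Hbb-y, of which GE117921 and GE117914 were good only on the αERKO array of this pair. The log2 ratio was 3.99 (SD 0.594) for Hba-a1 as deposited, or 15.9-fold, and 0.23 (SD 0.658), or 1.17-fold, by median pixels. Alas2 had a log2 ratio of 2.34, or 5.05-fold, and 2.41 by median pixels. Hbb-y was at least 590-fold higher by GE117921 and at least 4.65-fold higher by GE117914. It differed by 0.22, within the SD, by GE34551. With normexp background correction the log2 ratios were smaller, at 1.5003 for Alas2, 7.08 for GE117921 and 1.00 for GE117914, so the bounds hold for the deposited background subtraction only. A bound sets the bright spot against the higher of the dim spot's own value and the lowest good value of its array. Bounds given for Hbb-y and Hba-x in the comparisons below were likewise not reached with normexp.

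On the βERKO-labelled array, 1 of 4 measured probes was over 2-fold higher than on the WT array with DMBA and 0 were lower, against 6.96% and 8.37% of all probes. The log2 ratio was -0.75 (SD 0.366), or 1.68-fold lower, for Hba-a1, and -0.17 for Alas2, within the SD. The probe over the threshold was Hbb-y GE117921, at least 2.63-fold higher, from a spot close to the array median. GE34551 differed by 0.14.

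Between the αERKO and βERKO-labelled arrays, 4 of 5 measured probes were over 2-fold higher on the former and 0 lower, against 13.5% and 16.6% of all probes. With the arrays scaled to their 75th percentile, 55.83% of all calls were higher, in place of 44.87%. Hba-a1 differed by 4.73 (SD 0.560), or 26.6-fold, as deposited, and by 1.03 (SD 0.621), or 2.04-fold, by median pixels. Alas2 differed by 2.51, or 5.70-fold. Hbb-y differed by 7.81, or 225-fold, by GE117921, was at least 3.91-fold higher by GE117914, and differed by 0.08 by GE34551. With normexp the log2 ratios were 1.5905 for Alas2, 6.57 for GE117921 and 0.92 for GE117914.

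The WT arrays with and without DMBA at 24 days were compared for the presence of the carcinogen in the culture. Hba-a1 was higher with DMBA, with a log2 ratio of 2.17 (SD 0.309), or 4.49-fold, and 2.26 by median pixels. Alas2 did not move with it, at 0.00. Hbb-y was at least 2.08-fold lower by GE117921 and lower by 0.66 by GE34551. In all, 1 of 4 measured probes was over 2-fold higher and 1 lower, against 10.1% and 8.46% of all probes.

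From 10 to 24 days without DMBA, Hba-a1 was higher by 0.79 (SD 0.233), or 1.73-fold, and Alas2 by 0.24, close to its SD. Hbb-y GE117921 was at least 2.58-fold higher and Hba-x at least 2.43-fold lower at 24 days, so 1 of 5 measured probes was over 2-fold higher and 1 lower, against 6.05% and 6.34% of all probes. With normexp the log2 ratios were 0.59 for GE117921 and -0.48 for Hba-x, and by median pixels that of Hba-x was -1.03. These fall short of the bounds, which hold for the deposited intensities only.

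Balb/c glands at 24 days had a lower Hba-a1 level than C57 glands of 24 days without DMBA, with a log2 ratio of -1.48 (SD 0.332), or 2.80-fold lower. Alas2 was lower by 0.69 there and Hbb-y GE117921 was at least 1.82-fold lower. Of 4 measured probes 0 were over 2-fold higher and 1 was lower, against 9.17% and 9.33% of all probes; scaling to the 75th percentile moved the higher share of all calls from 49.58% to 67.14%. Strain, and DMBA, which the Balb/c titles do not give, cannot be told apart in this pair. With vitamin D5, Hba-a1 was lower by 0.36 (SD 0.226), or 1.28-fold, and Alas2 higher by 0.52. Hba-x was at least 1.33-fold higher. Of 4 measured probes 0 were over 2-fold higher and 0 lower with vitamin D5, against 5.12% and 7.06% of all probes.

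**Figure D3:**
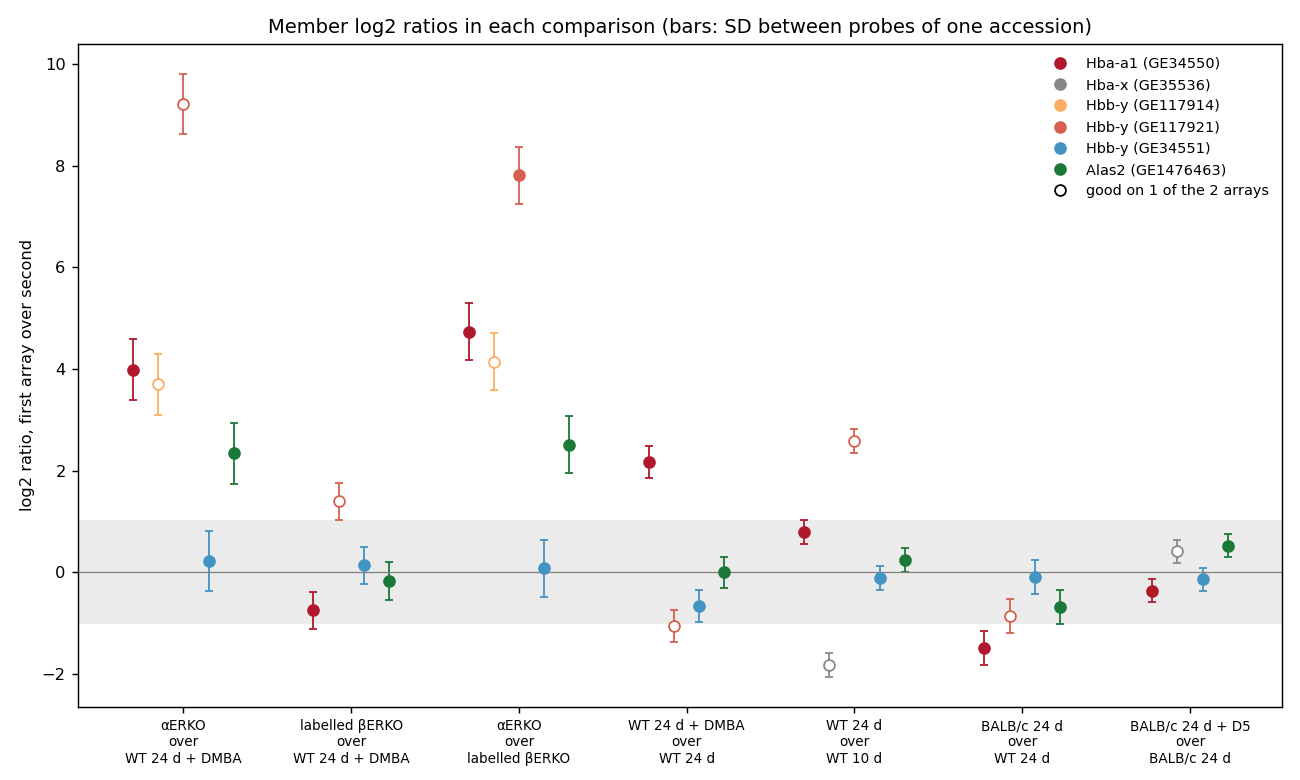
Log2 ratio of each measured probe in the 7 comparisons, by mean pixels, with the SD between probes of the same accession as bars; filled points are good on both arrays, open points on 1 of them (the ratio of both spots as measured, not the bound), and the grey band marks 2-fold. The αERKO array gives the large ratios, up to 9.20 for Hbb-y GE117921, and Hba-a1 is 2.17 higher with DMBA than without.

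Other genes of haemoglobin, haem and red cells were then set beside these, each gene by its brightest probe. For them the share of genes over 2-fold on the αERKO array against WT with DMBA was 10.2% higher and 15.2% lower. Of 9 other globins, 4 had a probe and were measured, and 2 were higher on the αERKO array. Myoglobin (Mb), the oxygen store of muscle, was 6.68 on the αERKO array, 1.75 on the βERKO-labelled array, 1.82 on the WT array with DMBA, and between 0.94 and 1.67 on the other 4 arrays. Its log2 ratio to WT with DMBA was 4.86. Cytoglobin (Cygb), a globin of fibroblasts and other tissue cells, was 5.20 on the αERKO array, 3.69 on the WT array with DMBA and 1.32 on the βERKO-labelled array, with the rest between 0.75 and 1.27. Neuroglobin (Ngb) stayed between 2.65 and 3.29. Hbq1a, a θ-globin of the α cluster named after its values were seen, was good on the αERKO array at -0.31 and on the WT array with DMBA at -0.38.

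All 12 genes of haem synthesis were good on every array. On the αERKO array 0 were over 2-fold higher than on the WT array with DMBA and 1 was lower, and the median log2 ratio was -0.30, with -0.17 for all genes. The gene that was lower was Cpox, which acts late in the pathway, at 1.70 against 3.57. Alas1, the form of the first enzyme that most tissues use, was 5.47 on the αERKO and on the βERKO-labelled arrays and 6.11 on the WT array with DMBA. Slc25a38, which carries glycine into the mitochondrion for the first step, was 5.13 and 4.72. Alas2 was thus over 2-fold higher on the αERKO array while 0 of these 12 genes were.

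Of 18 genes of the red cell membrane and skeleton, 11 were measured on at least 1 of these arrays. On the αERKO array 4 were higher and 1 lower, or 3 and 1 by median pixels. Aqp1, a water channel of red cells, endothelium and kidney, was 2.96 on the αERKO array and -0.32 on the WT array with DMBA, and was not well above background on the other 5. Ank1, ankyrin of the red cell skeleton, was 1.98 and -1.07, and likewise not well above background elsewhere. Cd59a, which guards cells against complement, was 3.85 and 2.64. Of 16 erythroid regulators 11 were measured, with 1 higher (Gfi1b, named after its value was seen, at least 3.32-fold) and 0 lower, or 1 and 1 by median pixels. Lmo2 was 1.35 and 1.98, Tspan33 -0.88 and -0.07, and Epor, the erythropoietin receptor, -0.75 and 0.18. The master regulator Gata1, named after its values were seen, lay between -1.22 and -0.80 on all 7 arrays. Of 12 genes of red cell metabolism 10 were measured, with 1 higher and 3 lower. The glucose transporter Slc2a1 (1.75 against 3.17) and the exportin Xpo7 (5.35 against 6.99) were among the 3 that were lower.

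Of 13 genes that break down haem and handle its iron, all measured, 5 had an αERKO level over 2-fold below that of the WT array with DMBA and 0 had one as far above it. Hmox1, haem oxygenase 1, which opens the haem ring, was 2.62 on the αERKO array, 7.32 on the WT array with DMBA and 8.80 on the βERKO-labelled array. It lay between 7.85 and 9.13 on the other 4 arrays, so the αERKO array stood below all of them. Its log2 ratio of αERKO to WT with DMBA was -4.70, and -3.51 by median pixels. Between the βERKO-labelled and WT with DMBA arrays its ratio turned from 1.48 to -0.71 by median pixels. Slc11a1, a metal transporter of macrophages, was 2.95 on the WT array with DMBA and not well above background on the αERKO array, a difference of at least 21.4-fold. Hpx, hemopexin, which binds free haem, was 0.47 on the αERKO array and 0.78 on the WT array with DMBA, and 3.45 on the βERKO-labelled array. Ftl1, the ferritin light chain (named after its values were seen), was lower by 1.83 as deposited but higher by 0.25 by median pixels, which left 4 of the 13 lower.

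The same lists were counted in the other comparisons. On the βERKO-labelled array against WT with DMBA, where 6.62% of all genes were over 2-fold higher and 7.29% lower, 0 of 12 haem synthesis genes passed in either direction. Of the 13 genes of haem and iron handling 3 were higher and 1 lower, or 1 and 1 by median pixels. Of the 4 other globins 0 were higher and 2 lower. Between the αERKO and βERKO-labelled arrays, 11.8% of all genes were higher on the αERKO array and 20.2% lower. Of the other globins 3 of 4 were higher there, and of haem synthesis 0 were higher and 1 of 12 lower. Of haem and iron handling 0 were higher and 6 of 13 lower, or 1 and 5 by median pixels.

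With DMBA against without, 11.6% of all genes were higher and 7.79% lower. Other globins were higher in 2 of 4 and lower in 0, and 0 of 12 haem synthesis genes passed 2-fold. Of the haem and iron genes 3 of 13 were higher and 1 lower, or 2 and 2 by median pixels. From 10 to 24 days, where 5.47% of all genes were higher and 4.34% lower, 0 of 12 haem synthesis genes and 0 of 13 haem and iron genes passed 2-fold. Between Balb/c and C57 glands, where 6.22% were higher and 12.2% lower, 0 of 12 haem synthesis genes passed, and 0 of the 13 haem and iron genes were higher and 3 lower (2 and 2 by median pixels). With vitamin D5, where 4.41% were higher and 4.39% lower, 0 of both lists passed as deposited. By median pixels 3 of the 13 haem and iron genes were lower.

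**Figure D4:**
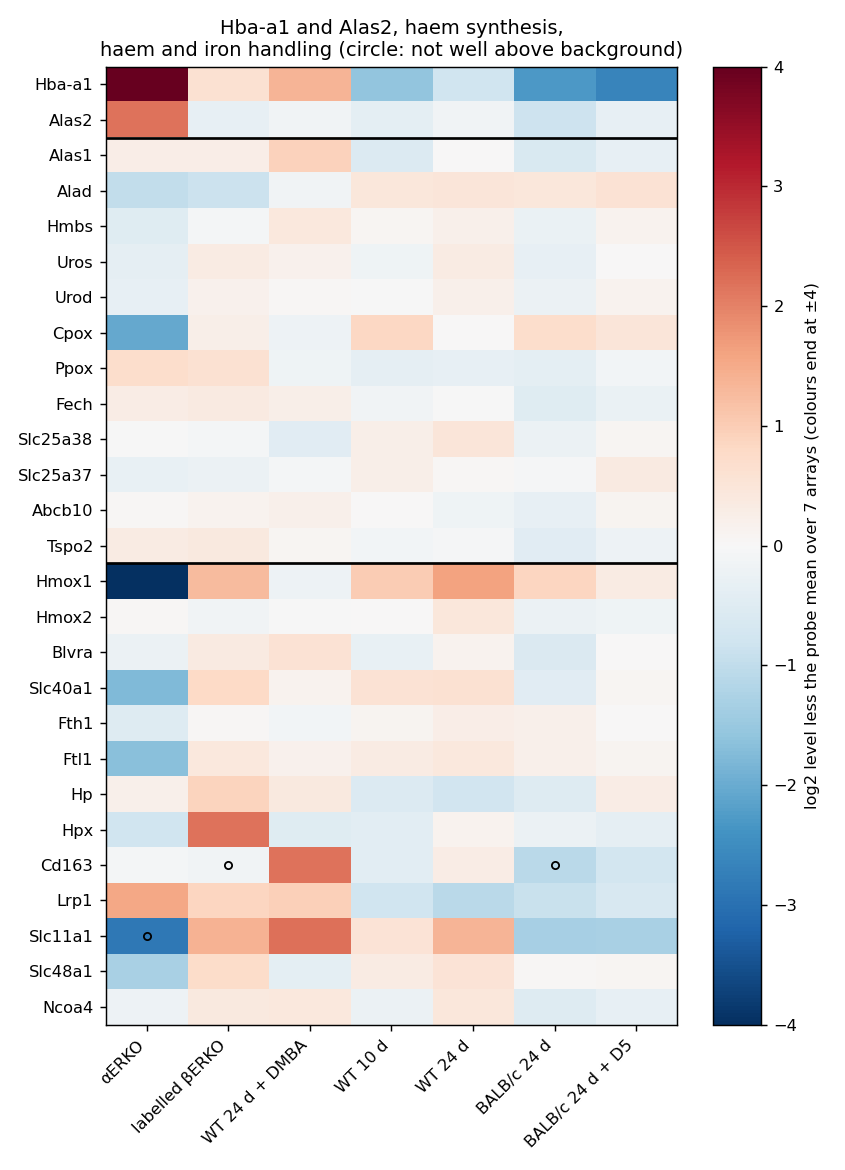
Log2 level by mean pixels, less the probe's mean over the 7 arrays (colour, ending at 4 either way), for Hba-a1 and Alas2 (top), haem synthesis (middle) and haem and iron handling (bottom); circles mark spots not well above background. Alas2 is raised on the αERKO array at 2.54 with Cpox lowered at 1.70, and Hmox1 is lowered there at 2.62.

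Markers of other cell types differed between the same arrays, and their part in the levels above was not tested. The summed normalized intensity of 10 skeletal muscle genes was 2358 on the αERKO array, 51.9 on the βERKO-labelled array and between 8.72 and 10.8 on the other 5 arrays. All 10 were over 2-fold higher on the αERKO array than on the WT array with DMBA. By median pixels the muscle sum on the αERKO array was 1314. Of 9 lymphocyte markers with a probe, 8 were measured and 6 were higher on the αERKO array and 0 lower, with sums of 61.3 there and 12.5 to 15.98 elsewhere; Cd3e was not well above background on any array, while Cd3d was 3.49 on the αERKO array. The 10 mammary epithelial markers summed to 490 on the αERKO array and to 910 to 1680 on the other 6, and 6 of them were lower on it than on the WT array with DMBA. Of the other blood cell lists, platelet markers summed to 26.2 on the αERKO array and 9.29 to 78.9 elsewhere (3 of 8 measured higher, 1 lower), and neutrophil markers to 39.2 and 24.2 to 159 (4 of 8 higher, 1 lower). Macrophage markers summed to 208 on the αERKO array and 714 on the WT array with DMBA, with 6 of 7 lower.

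Vessel markers followed another order than Hba-a1, while the fat sums by mean pixels followed the order of Hba-a1. The 11 endothelial genes with a probe summed to 173 on the WT array with DMBA, 138 on the αERKO array, 66.3 on the βERKO-labelled array and 39.6 on the WT array of 24 days without DMBA, and to 14.6 to 18.8 on the other 3. All 10 that were measured were over 2-fold higher with DMBA than without, as Hba-a1 was. Kdr, a receptor for VEGF, was 3.27 with DMBA and -0.24 without. The 6 pericyte genes summed to 16.6 with DMBA and 4.47 without. The 9 adipocyte genes summed to 3021 (αERKO), 1786 (WT with DMBA), 1584 (labelled βERKO) and 1003 (WT of 24 days without DMBA). On the other 3 arrays they summed to 305 (WT 10 days), 267 (Balb/c) and 180 (Balb/c with vitamin D5). By median pixels the first 4 sums were 1065, 863, 710 and 515. The other 3 were then 268, 380 and 229, so the Balb/c array stood above the WT 10-day array. Of the 9 genes, 7 were over 2-fold lower in Balb/c than in C57 glands of 24 days without DMBA and 0 were higher.

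**Figure D5:**
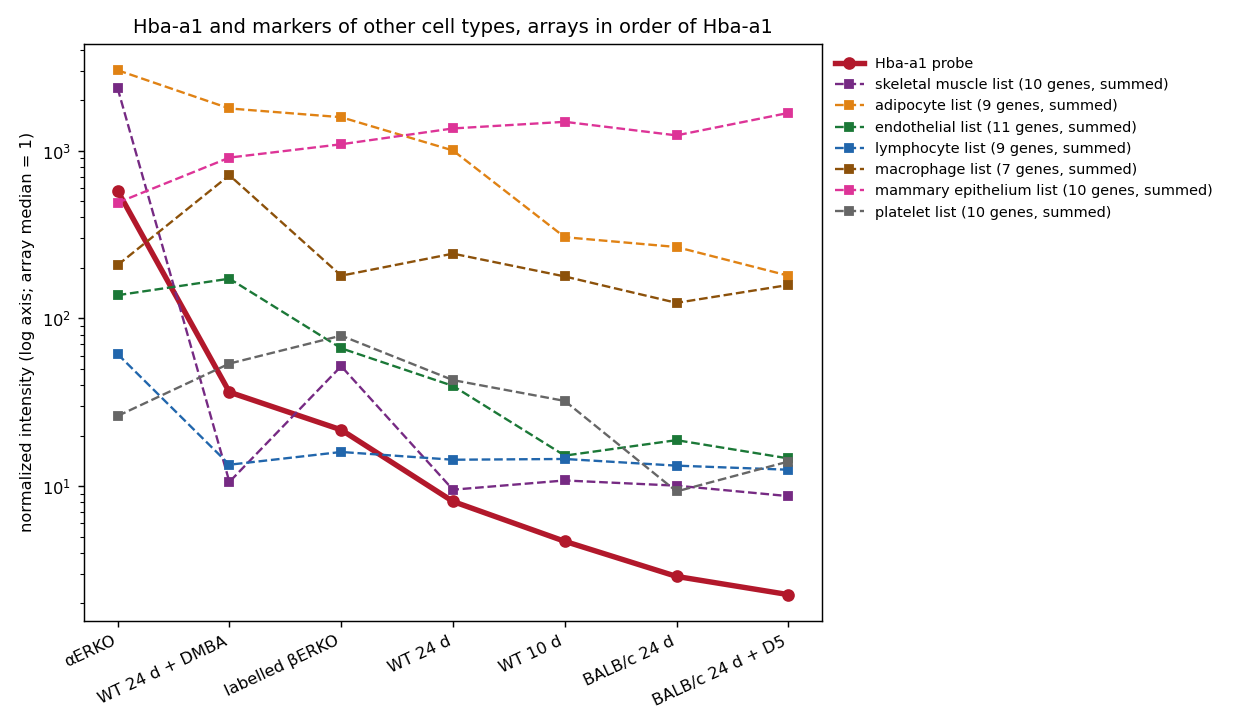
Normalized intensity of Hba-a1 (solid) and summed normalized intensity of marker lists of other cell types (dashed), by mean pixels, on a log axis with the array median at 1; arrays run in falling order of Hba-a1. Endothelial and adipocyte sums are low on the same 3 arrays as Hba-a1, at 14.6 to 18.8 and 180 to 305, and the muscle sum stands out on the αERKO array at 2358.

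The genes whose levels over the 7 arrays were most like those of Hba-a1 were sought among 9348 genes good on all arrays, by the root mean square difference of log2 levels centred on each probe's mean. By mean pixels these were Cox8b (0.47), Tmem45b (0.56), Ntrk2 (0.63), Rtn2 (0.64), Rasd1 (0.65), Lgals12 (0.65), Adh1 (0.71), Amy1 (0.72), Olfr686 (0.73) and Fabp3 (0.73), where the median of all candidates was 2.64. By median pixels the 10 nearest were led by Prkar2b (0.14), Tbx15 (0.26) and Afap1l1 (0.32), and 0 of the first 10 were among them. By median pixels those first 10 ranked between 47 (Tmem45b, 0.51) and 1330 (Fabp3, 1.42) of 9828 probes, all nearer than the median of 1.75.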

How the data were processed

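Glands were measured on 7 arrays, 1 per group, and per the methods 3 groups were RNA pooled from 5 mice each. The authors stained with Cy5-streptavidin, scanned, and processed images with CodeLink Expression Analysis software. The deposited intensity of a spot is its mean pixel less the median of its local background; probe sequences, software version and genome build are not given in the sources used here. The deposited series table was not used, since its rows match no probe column. Here intensities were divided by the median of gene probes per array, leaving out 320 negative and 300 positive control spots, non-positive values were set to the smallest positive value of their array before log2 was applied. Accessions were named through RefSeq (14763 of 15553 matched, 13971 symbols). The members, and the gene lists, were chosen with earlier results of these data known. Genes named were all members, up to 3 a list with the largest ratio in any of the 7 comparisons among probes good on both arrays, and the 10 most like Hba-a1. Some genes that the rule or the lists hold are not reported here. Called means over 2-fold on probes good on at least 1 array of a pair. Replicates are absent, so no p-value is given; the number of arrays limits precision. Alternatives (other scalings, limma 3.58.1 for normexp with an offset of 50, quantile and loess, filters, thresholds, and median pixels, added after seeing the data) are in the closing section. Counting was tested on simulated data. Python 3.11.15, pandas 2.3.3 and R 4.3.3 were used.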

Additional observations from a re-analysis of the deposited data

Results flagged for a closer look

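The Hba-a1 probe (GE34550) moved in opposite directions on the αERKO and βERKO-labelled arrays, the latter with an Esr2 probe that was good (0.87), against its label. Against the shared WT array with DMBA its log2 ratio was 3.99 on the αERKO array and -0.75 on the βERKO-labelled array, a difference of 4.735, and both ratios exceeded the SD between probes of the same accession. The difference was not tested, since there is 1 array per group. By median pixels the ratios were 0.23 and -0.80, and the first no longer exceeded that SD (0.658).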

How the results depend on the processing

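No paired analysis was possible because there is 1 array per group. The deposited series table was not run as an alternative, since its rows match no probe. By median pixels the Hba-a1 log2 ratio was 0.2315 in place of 3.99 for αERKO over WT with DMBA and 1.0268 in place of 4.73 for αERKO over the βERKO-labelled array. Under the other settings run these ratios stayed between 3.74 and 4.20 and between 4.60 and 5.13, and Hba-a1 kept its direction in all 7 comparisons; normexp gave -1.1439 in place of -1.48 for Balb/c over C57. Counts of probes over 2-fold differed by more than 1.5 times from the first count as follows. αERKO over WT with DMBA gave 2 in place of 4 with probes good on both arrays. The βERKO-labelled array over WT gave 0 in place of 1 with normexp, with probes good on both arrays or at 3-fold, 3 without a detection filter and 2 at 1.5-fold. With over without DMBA gave 1 in place of 2 under quantile, loess, normexp, probes good on both arrays or 3-fold, and 4 without a filter. The 24-day over the 10-day array gave 0 in place of 2 with normexp or probes good on both arrays. Balb/c over C57 gave 2 in place of 1 under quantile normalization or median pixels, 0 at 3-fold and 3 at 1.5-fold. Vitamin D5 gave 1 in place of 0 without a filter or by median pixels. The remaining 71 counts and 60 log2 ratios stayed within 1.5 times and within the SD between probes. For the other members normexp gave the smallest αERKO ratios to WT with DMBA: 1.5003 in place of 2.34 for Alas2, 7.08 in place of 9.20 for Hbb-y GE117921 and 1.00 in place of 3.70 for GE117914. The last is below its bound of 4.65-fold, as is 0.92 in place of 4.14 (bound 3.91-fold) against the βERKO-labelled array. The sign changed only for Alas2 with over without DMBA and for Hbb-y GE34551 in Balb/c over C57, both near 0. Apart from the cases that fewer or more probes explain by construction, the cause was not tested. Dim spots limit Hba-x, Slc4a1 and Hbb-y GE117914, whose ratios are bounds at most.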
